A study of Mus musculus with 6 samples.

Results

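The 10 genes described here are Egr1, Egr2, Egr3, Nr4a1, Nr4a2, Nr4a3, Ier2, Ier3, Ier5 and Myc, taken by symbol from a table of 27482 genes. RNA-seq libraries of AAV9-hFNDC4 mice (3) and of AAV9-CTRL mice (3) were compared. Per the labels, AAV9-hFNDC4 mice carried an adeno-associated virus vector for FNDC4 overexpression and AAV9-CTRL mice a control vector of the same serotype. Both groups had cardiac ischemia/reperfusion (I/R), in which blood flow to the heart is stopped and then restored, and samples labelled as hearts were collected 24 h later, in male mice per the series title. The sources used here do not state strain, age, the promoter of the vector or whether each library is a single animal. The p-values below therefore cover the spread among these libraries, which may be technical.

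Immediate early genes are transcribed within minutes of a stimulus without new protein synthesis, and their short-lived mRNAs fade soon after it ends. Growth factor and stress signals reach them through ERK and p38 kinases acting on SRF with its ETS partners, and through CREB. EGR proteins are zinc finger transcription factors, NR4A proteins are orphan nuclear receptors, IER proteins are small regulators without a DNA-binding domain of those kinds, and MYC is a transcription factor of growth and ribosome production. Egr1 is known to be induced by ischemia and reperfusion in heart.

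Total counts were 34419687 to 35149915 in the AAV9-hFNDC4 libraries and 32975817 to 36074046 in the AAV9-CTRL libraries. Genes with a count above 0 numbered 18717 to 18863 in AAV9-hFNDC4 libraries, against 20431 to 20870 in AAV9-CTRL libraries. The cause of that gap was not tested. Fndc4 itself was not analysed here and gives no check of the vector labels. The tissue label was checked against markers. Of 12 cardiomyocyte markers, 2 reached 1 CPM (counts scaled to a common library total) in at least 3 libraries, and Nkx2-5 and Pln had 0 counts in all 6. The list sum was 41.7 to 44.8 CPM in AAV9-hFNDC4 libraries against 51.0 to 52.5 CPM in AAV9-CTRL libraries, nearly all of it Tnnt2. Of 8 fibroblast markers, 4 reached 1 CPM, the collagens Col1a1, Col1a2 and Col3a1 and the receptor Pdgfra, with Col1a2 at a mean of 1311 CPM over the 6 libraries. Dcn, Lum, Tcf21 and Postn had means of 0.0432, 0.00463, 0.00463 and 0.116 CPM. The sum of the list was 2685 to 3399 CPM in AAV9-hFNDC4 libraries against 1709 to 2119 CPM in AAV9-CTRL libraries. Of 8 monocyte and macrophage markers, 3 reached 1 CPM and C1qb was at 0, and the sum was 20.0 to 23.1 CPM in AAV9-hFNDC4 libraries against 32.9 to 40.9 CPM in AAV9-CTRL libraries. Endothelial markers reached 1 CPM in 2 of 8 genes with Emcn at 0, and their sums were 2.13 to 3.81 CPM in AAV9-hFNDC4 libraries against 3.24 to 5.19 CPM in AAV9-CTRL libraries. Leukocyte markers reached it in 1 of 4 genes, with sums of 8.92 to 9.18 CPM in AAV9-hFNDC4 libraries against 9.54 to 14.9 CPM in AAV9-CTRL libraries. Neutrophil markers reached it in 0 of 4 genes, with sums of 0 in AAV9-hFNDC4 libraries against at most 0.333 CPM in AAV9-CTRL libraries. The near absence of most cardiomyocyte markers goes against the label of heart tissue. The libraries are therefore named by their vector labels, and no value is assigned to heart muscle. The cardiomyocyte, fibroblast, macrophage and leukocyte sums did not overlap between the groups, and their part in the values below was not tested. In bulk RNA, fewer cells of a type and less RNA per cell cannot be told apart.

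All 10 genes passed the low-count filter, 7 were lower and 3 higher in AAV9-hFNDC4 libraries than in AAV9-CTRL libraries (edgeR quasi-likelihood test, Benjamini-Hochberg adjusted p under 0.05 over 14663 tested genes). Among all tested genes 25.0% were lower, 22.1% were higher and 47.1% were called in either direction by the same rule. The 7 lower genes were Egr1, Egr2, Nr4a1, Nr4a3, Ier2, Ier3 and Ier5, and each was more than 2-fold lower, a size that 7.18% of tested genes reached. The 3 higher genes were Egr3, Nr4a2 and Myc, of which Egr3 was more than 2-fold higher, against 6.77% of tested genes. The groups did not overlap for any of the 10 genes, which also held for 56.6% of tested genes, 27.1% with AAV9-hFNDC4 higher and 29.5% with AAV9-hFNDC4 lower. The median log2 fold change was -1.70 over the 10 genes and 0.01 over all tested genes. Within both the EGR and the NR4A family, a single paralog was higher while the other two were lower.

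**Figure D1:**
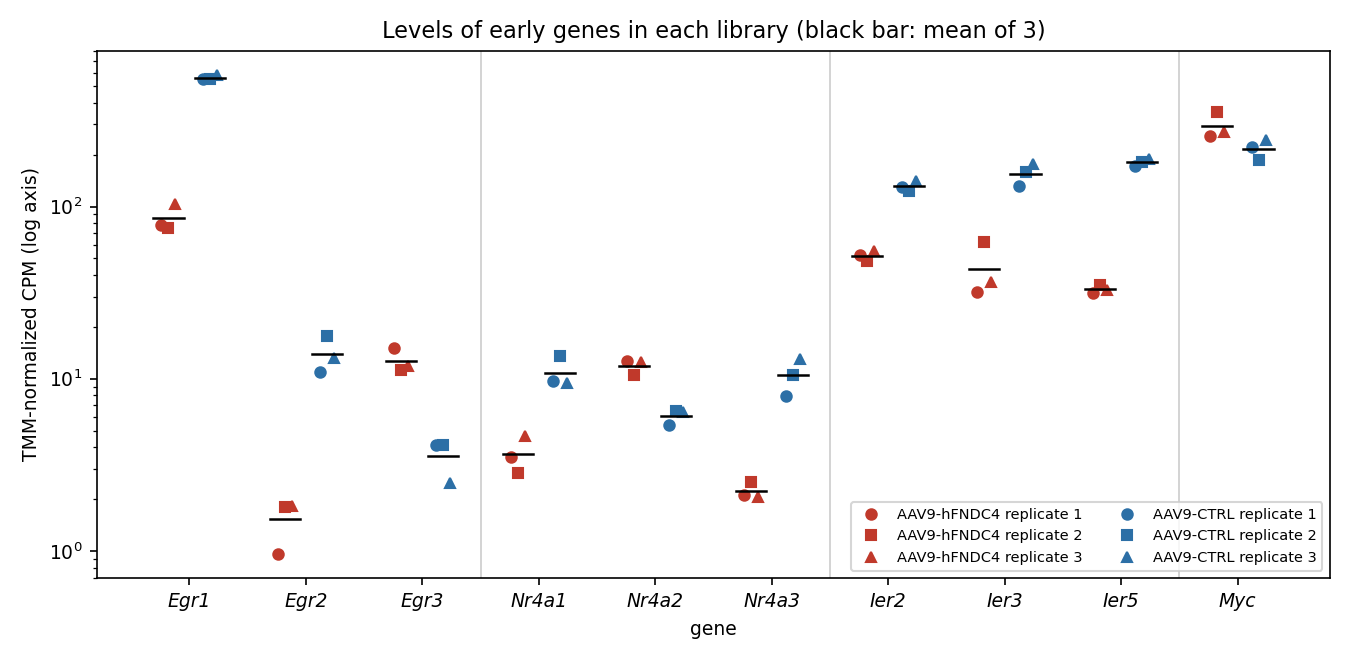
TMM-normalized CPM (log axis) of the 10 genes in each library, with AAV9-hFNDC4 in red left of AAV9-CTRL in blue, a marker shape per replicate number and black bars for means of 3. Red points lie below blue points for 7 genes and above them for Egr3, Nr4a2 and Myc.

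Egr1, the most studied EGR factor (chromosome 18, 34861207 to 34864956, GRCm38.p6), had 78.3, 74.7 and 103 CPM in AAV9-hFNDC4 replicates 1 to 3, against 547, 551 and 583 CPM in AAV9-CTRL replicates 1 to 3. These values are CPM on library sizes normalized by TMM, the trimmed mean of M values. The AAV9-CTRL libraries lay close together, with a coefficient of variation of 3.49%, while AAV9-hFNDC4 replicate 3 stood above the other two and gave 18.3%. Egr1 thus had a log2 fold change of -2.71 (SE 0.14, edgeR adjusted p = 2.99e-07), and 2.35% of tested genes had a lower one.

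Egr2, known for its role in myelination and hindbrain patterning (chromosome 10, 67534469 to 67542188), was lower by the largest fold of the 10 genes. It was counted with 36, 65 and 67 reads in AAV9-hFNDC4 libraries, against 377, 557 and 442 reads in AAV9-CTRL libraries. This gave 0.962, 1.80 and 1.82 CPM in AAV9-hFNDC4 libraries, against 10.9, 17.8 and 13.2 CPM in AAV9-CTRL libraries. AAV9-hFNDC4 replicate 1 was the lowest library, yet every AAV9-hFNDC4 value was under every AAV9-CTRL value. Its log2 fold change was -3.19 (SE 0.28, edgeR adjusted p = 1.61e-05).

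Egr3, which is needed for muscle spindle development (chromosome 14, 70077317 to 70082613), went the other way. It had 15.0, 11.3 and 11.9 CPM in AAV9-hFNDC4 libraries, against 4.11, 4.14 and 2.48 CPM in AAV9-CTRL libraries. The lowest AAV9-hFNDC4 library was thus above the highest AAV9-CTRL library. The log2 fold change of Egr3 was 1.83 (SE 0.23, edgeR adjusted p = 0.000106), and 1.36% of tested genes had a higher one. Egr4, the fourth EGR gene, had 0 counts in all 6 libraries, which allows at most 0.0832 to 0.0910 CPM per library (3 counts, counting error only).

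The ratio of 2 genes within a library needs no scaling between libraries. The log2 ratio of Egr3 to Egr1 read counts was -2.38, -2.73 and -3.12 in AAV9-hFNDC4 libraries, against -7.05, -7.05 and -7.87 in AAV9-CTRL libraries. The ratio was therefore 23.9-fold higher in AAV9-hFNDC4 libraries (exact two-sided permutation p = 0.1, the smallest that 3 against 3 libraries can give, and adjusted p = 0.15 over 9 paralog pairs). Egr3 to Egr2 had a log2 ratio of 3.09 ± 0.738 in AAV9-hFNDC4 libraries, against -1.97 ± 0.512 in AAV9-CTRL libraries (SD, n = 3 each), and the groups did not overlap. The log2 ratio of Egr2 to Egr1 differed by -0.48, with overlapping groups (exact permutation p = 0.3). Per kb of exon, Egr1 made up 81.5% to 86.9% of the sum of the 3 EGR genes in AAV9-hFNDC4 libraries, against 94.9% to 96.5% in AAV9-CTRL libraries. Egr3 made up 10.9% to 17.1% of that sum in AAV9-hFNDC4 libraries, against 0.449% to 0.791% in AAV9-CTRL libraries. Egr1 thus remained the most abundant EGR transcript per length in all 6 libraries, and the sum itself was 20.0 to 26.5 CPM per kb in AAV9-hFNDC4 libraries, against 126.5 to 135 CPM per kb in AAV9-CTRL libraries.

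The 250 bases before an Egr2 start, 1 of 5 such windows listed for the gene and the only one shown, hold motifs through which SRF and CREB are known to act. The RefSeq window (GRCm38.p6, chr10:67537619-67537868, plus strand) is shown 5′ to 3′. It precedes a start inside the annotated gene and lies within the gene's span, as do the other windows. The CArG box, the SRF motif, and the CRE half-sites of CREB (TGACG or CGTCA) are in capitals.
Egr2: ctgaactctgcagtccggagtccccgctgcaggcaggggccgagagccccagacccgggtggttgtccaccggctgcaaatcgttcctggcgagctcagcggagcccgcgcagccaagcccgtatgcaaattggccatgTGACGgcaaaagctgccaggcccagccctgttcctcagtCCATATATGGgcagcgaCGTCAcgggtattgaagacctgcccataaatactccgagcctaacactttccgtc
On either strand, a CArG box was found in 1.47% of 32851 such windows and a CRE half-site in 17.8%. The Egr2 window shown holds 1 CArG box and 2 half-sites, as do 2 others that overlap it. Of the remaining 2 windows, 1 holds a CArG box and 0 half-sites, and 1 holds 0 of both. A match of letters describes the sequence and says nothing on binding in these samples.

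NR4A receptors bind DNA without a classical ligand, as monomers or dimers, and Nr4a1 and Nr4a2 can pair with RXR. Nr4a1, also called Nur77 (chromosome 15, 101253902 to 101274795), had 3.50, 2.83 and 4.67 CPM in AAV9-hFNDC4 libraries, against 9.66, 13.5 and 9.39 CPM in AAV9-CTRL libraries. AAV9-CTRL replicate 2 was the highest of its group and AAV9-hFNDC4 replicate 3 the highest of its own, without overlap between the groups. For Nr4a1 the log2 fold change was -1.57 (SE 0.24, edgeR adjusted p = 0.000308).

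Nr4a3, also called NOR1 (chromosome 4, 48045078 to 48086447), had 2.11, 2.52 and 2.06 CPM in AAV9-hFNDC4 libraries, against 7.93, 10.6 and 13.0 CPM in AAV9-CTRL libraries. The AAV9-hFNDC4 values were close together and the AAV9-CTRL values spread more widely, with coefficients of variation of 11.3% in AAV9-hFNDC4 libraries and 24.4% in AAV9-CTRL libraries. The log2 fold change of Nr4a3 was -2.23 (SE 0.23, edgeR adjusted p = 3.84e-05).

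Nr4a2, also called Nurr1 and needed for midbrain dopamine neurons (chromosome 2, 57106830 to 57124003), was higher. Its values were 12.7, 10.5 and 12.4 CPM in AAV9-hFNDC4 libraries, against 5.38, 6.53 and 6.37 CPM in AAV9-CTRL libraries. The spread was small in both groups, with coefficients of variation of 9.93% in AAV9-hFNDC4 libraries and 10.2% in AAV9-CTRL libraries. For Nr4a2 the log2 fold change was 0.96 (SE 0.17, edgeR adjusted p = 0.000873).

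The make-up of the NR4A family by transcript differed between the groups. Per kb of exon, Nr4a2 made up 61.2% to 66.9% of the sum of the 3 NR4A genes in AAV9-hFNDC4 libraries, against 20.2% to 22.7% in AAV9-CTRL libraries. Nr4a1 made up 24.5% to 32.1% in AAV9-hFNDC4 libraries against 46.8% to 58.5% in AAV9-CTRL libraries. The leading NR4A transcript per length was Nr4a2 in every AAV9-hFNDC4 library and Nr4a1 in every AAV9-CTRL library. The family sum was 4.31 to 5.43 CPM per kb in AAV9-hFNDC4 libraries, against 6.43 to 8.65 CPM per kb in AAV9-CTRL libraries. The log2 ratio of Nr4a2 to Nr4a1 read counts was 1.72 ± 0.268 in AAV9-hFNDC4 libraries, against -0.82 ± 0.247 in AAV9-CTRL libraries, a 5.80-fold higher ratio (SD, n = 3 each, exact permutation p = 0.1, adjusted p = 0.15). Nr4a2 to Nr4a3 differed by 3.17 on the log2 scale without overlap, and Nr4a3 to Nr4a1 by -0.63 with overlap (exact permutation p = 0.3).

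**Figure D2:**
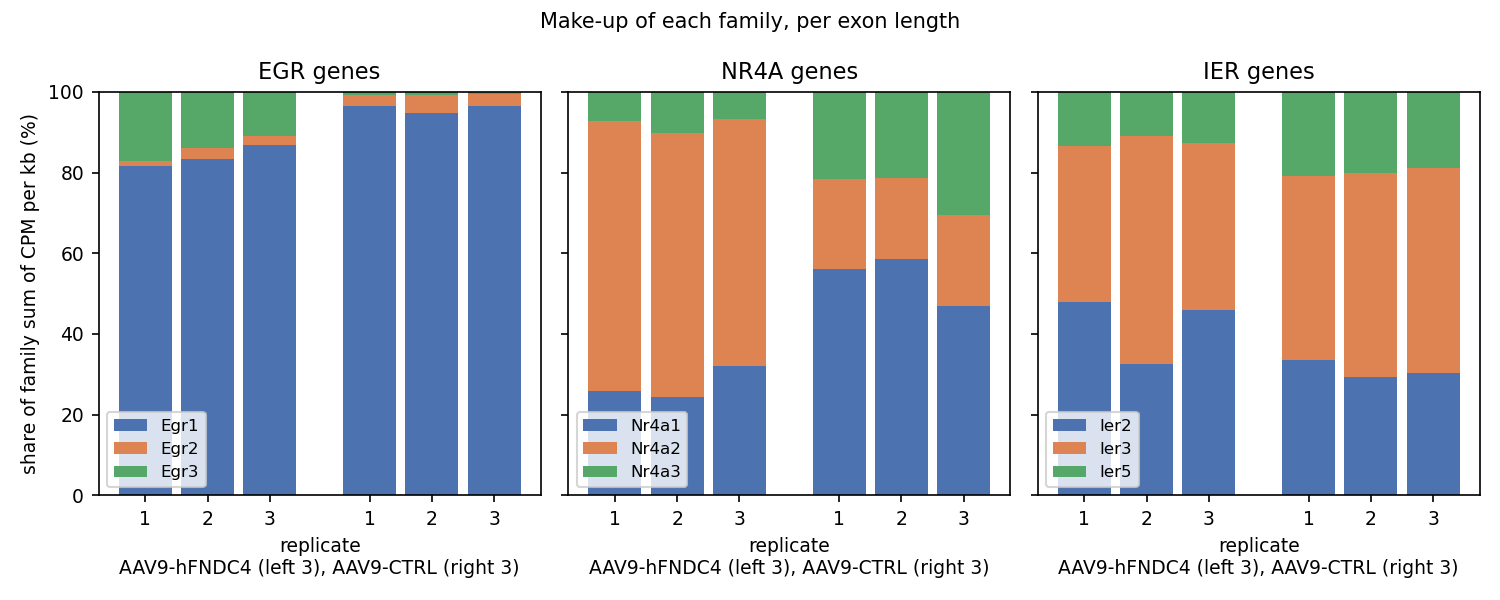
Share of each gene in its family's sum of CPM per kb of exon (%, stacked to 100), in 3 AAV9-hFNDC4 libraries (left bars) and 3 AAV9-CTRL libraries (right bars) per family. Nr4a2 takes 61.2% to 66.9% of the NR4A sum in AAV9-hFNDC4 libraries against 20.2% to 22.7% in AAV9-CTRL libraries, and Egr3 takes 10.9% to 17.1% of the EGR sum in AAV9-hFNDC4 libraries against 0.449% to 0.791% in AAV9-CTRL libraries.

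The promoter windows of Nr4a1 and Nr4a2 are shown because these paralogs differed in direction. They are RefSeq windows of 250 bases before the start (GRCm38.p6, chr15:101266596-101266845, plus strand, at a start inside the annotated gene, and chr2:57124004-57124253, minus strand), 5′ to 3′, with CRE half-sites in capitals. For Nr4a3, a stretch of 30 bases (chr4:48045067-48045096, plus strand) is given. It was picked as the first of that length with the most whole CRE half-sites in its window. The stretch crosses the annotated start of the gene at 48045078.
Nr4a1: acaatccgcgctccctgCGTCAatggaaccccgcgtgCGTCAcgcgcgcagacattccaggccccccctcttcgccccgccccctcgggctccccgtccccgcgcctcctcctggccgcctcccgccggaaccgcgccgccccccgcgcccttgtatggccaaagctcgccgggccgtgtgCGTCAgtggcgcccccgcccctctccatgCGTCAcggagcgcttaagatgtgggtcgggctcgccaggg
Nr4a2: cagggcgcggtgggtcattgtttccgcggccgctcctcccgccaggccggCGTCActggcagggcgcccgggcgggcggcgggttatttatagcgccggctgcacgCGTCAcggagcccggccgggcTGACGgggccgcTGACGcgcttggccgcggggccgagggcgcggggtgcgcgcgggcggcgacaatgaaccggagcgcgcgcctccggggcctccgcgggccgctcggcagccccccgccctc
Nr4a3: aggagggTGACGtagcgtcccatgtCGTCA
The whole windows of Nr4a1 and Nr4a2 hold 4 CRE half-sites each, none of them part of the full CRE (TGACGTCA), which 1.55% of windows hold. The Nr4a1 and Nr4a2 windows also hold 1 EGR site each (GCGNGGGCG or CGCCCNCGC, in 4.70% of windows), and the Nr4a3 window none. The Nr4a3 window also holds 4 half-sites, but 152 of its 250 bases are exon in the annotation, against 0 for Nr4a1 and Nr4a2, so these windows are not alike.

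The 3 IER genes were all lower. Ier2, a nuclear early gene product (chromosome 8, 84661331 to 84662852), had 52.6, 48.0 and 54.9 CPM in AAV9-hFNDC4 libraries, against 130, 123 and 141 CPM in AAV9-CTRL libraries. Ier2 had a log2 fold change of -1.34 (SE 0.11, edgeR adjusted p = 1.04e-05), and -1.02 when the trend of counts with transcript length was removed. The spread was under 7% of the mean in both groups, at 6.71% in AAV9-hFNDC4 libraries and 6.95% in AAV9-CTRL libraries.

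Ier3, also called IEX-1 and known as a regulator of apoptosis and of ERK signalling (chromosome 17, 35821713 to 35822911), was the most variable gene in AAV9-hFNDC4 libraries. It had 31.7, 62.2 and 36.6 CPM there, against 132, 158 and 176 CPM in AAV9-CTRL libraries. AAV9-hFNDC4 replicate 2 had the highest value of its group, and the coefficient of variation was 37.7%, against 14.2% in AAV9-CTRL libraries. For Ier3 the log2 fold change was -1.83 (SE 0.23, edgeR adjusted p = 0.000156), -2.18 without that library and -1.42 with the length correction.

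Ier5, a gene that heat shock factor HSF1 is known to induce and whose protein promotes HSF1 activity (chromosome 1, 155096367 to 155099636), varied least of the 10 genes among AAV9-hFNDC4 libraries. It had 31.5, 35.1 and 32.7 CPM in AAV9-hFNDC4 libraries, against 173, 181 and 188 CPM in AAV9-CTRL libraries, with coefficients of variation of 5.45% in AAV9-hFNDC4 libraries and 4.15% in AAV9-CTRL libraries. The log2 fold change of Ier5 was -2.45 (SE 0.10, edgeR adjusted p = 1.00e-07), the smallest adjusted p of the 10 genes. Ier5l, a related gene chosen after its values were seen, was lower at 13.2 ± 1.08 CPM in AAV9-hFNDC4 libraries, against 42.0 ± 6.83 CPM in AAV9-CTRL libraries (SD, n = 3 each, log2 fold change -1.67, SE 0.14, edgeR adjusted p = 1.40e-05). The log2 ratio of Ier5 to Ier2 read counts was -0.65 ± 0.167 in AAV9-hFNDC4 libraries, against 0.46 ± 0.0857 in AAV9-CTRL libraries, without overlap (SD, n = 3 each, exact permutation p = 0.1, adjusted p = 0.15). Ier3 to Ier2 differed by -0.54 with overlapping groups (exact permutation p = 0.4), and Ier5 to Ier3 by -0.56 without overlap. Of the 9 pairs over all families, the groups did not overlap in 6.

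The Ier5 window (GRCm38.p6, chr1:155099637-155099886, minus strand, RefSeq) is shown as a contrast, since it holds no CRE half-site and no CArG box and so has no capitals.
Ier5: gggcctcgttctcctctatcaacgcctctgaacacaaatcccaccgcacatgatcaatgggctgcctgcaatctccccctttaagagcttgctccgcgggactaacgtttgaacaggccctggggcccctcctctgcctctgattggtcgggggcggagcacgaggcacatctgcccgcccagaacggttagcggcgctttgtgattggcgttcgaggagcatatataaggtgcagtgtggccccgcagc
It also holds 0 heat shock elements in the forms GAANNTTC or TTCNNGAA, which 12.8% of windows hold, and 2 CCAAT boxes (CCAAT or ATTGG, in 33.8% of windows). That these letters are not in this window says nothing on sites elsewhere. The Ier3 window, which is not shown, likewise holds 0 CRE half-sites, 0 CArG boxes, 0 heat shock elements and 2 CCAAT boxes. Of its 250 bases, 29 are exon in the annotation. Windows were used for 6 of the 10 genes, and none was used for Egr1, Egr3, Ier2 and Myc.

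Myc (chromosome 15, 61985341 to 61990361) had 256, 355 and 271 CPM in AAV9-hFNDC4 libraries, against 220, 185 and 244 CPM in AAV9-CTRL libraries. The groups did not overlap, but the gap between AAV9-hFNDC4 replicate 1 and AAV9-CTRL replicate 3 was small, and AAV9-hFNDC4 replicate 2 stood above the rest. The log2 fold change of 0.44 (SE 0.14, edgeR adjusted p = 0.0243) was the smallest of the 10 genes in size. Without AAV9-hFNDC4 replicate 2 it was 0.29 (adjusted p = 0.0986) and without AAV9-CTRL replicate 2 it was 0.34 (adjusted p = 0.0583), so the call of Myc rests on these libraries (adjusted p 0.000925 to 0.0986 over 15 alternatives). Its relative Mycl had 0 counts in all 6 libraries, and Mycn had 0 counts in AAV9-hFNDC4 libraries against 1 in each AAV9-CTRL library.

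**Figure D3:**
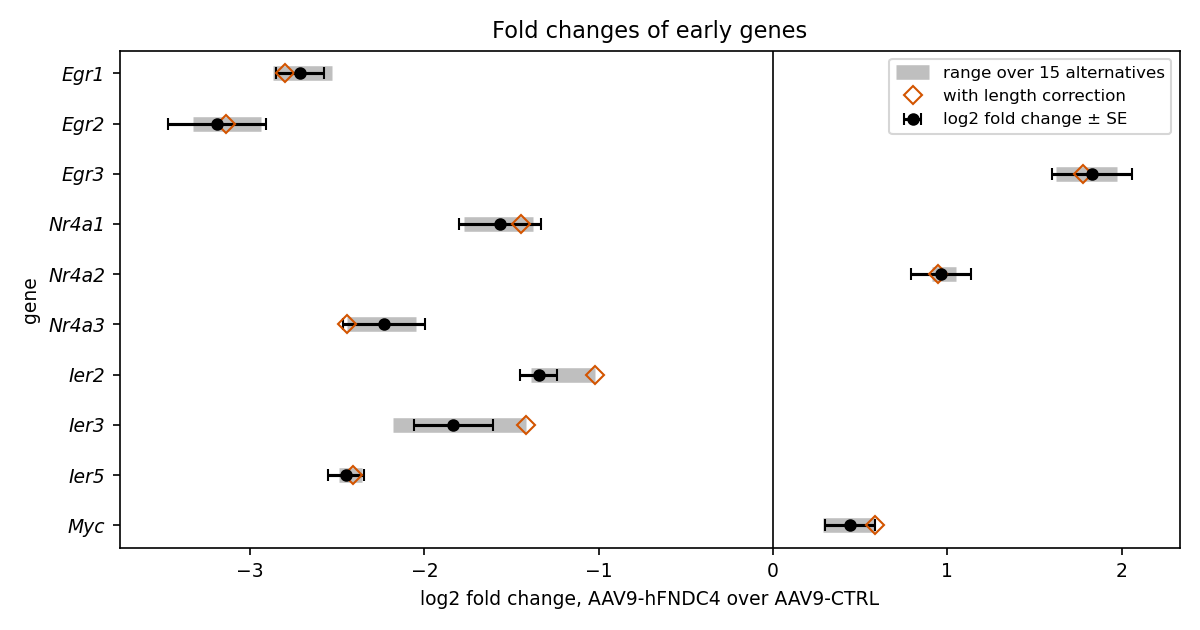
Log2 fold change (AAV9-hFNDC4 over AAV9-CTRL) of each gene with its SE (black), the range over 15 alternatives (grey) and the value with the length correction (open diamonds). Egr3, Nr4a2 and Myc lie right of 0, from 0.44 to 1.83, and the other 7 genes lie left of 0, from -3.19 to -1.34.

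Levels of different genes were compared per kb of exon. The exon length used for Egr1 was 4484 bases, longer than its RefSeq span of 3750 bases. A shorter length would raise Egr1 per kb, so its order beside Ier3 in AAV9-CTRL libraries depends on the annotation. In AAV9-hFNDC4 libraries Myc was highest at 120 ± 21.9 CPM per kb, then came Ier3 at 38.5 ± 14.5, Ier2 at 34.1 ± 2.29, Egr1 at 19.1 ± 3.48 and Ier5 at 10.1 ± 0.550 CPM per kb. Low levels followed for Nr4a2 at 3.18 ± 0.315, Egr3 at 3.10 ± 0.485, Nr4a1 at 1.37 ± 0.348, Egr2 at 0.479 ± 0.154 and Nr4a3 at 0.390 ± 0.0440 CPM per kb (SD, n = 3). In AAV9-CTRL libraries the order was Ier3 at 137 ± 19.5, Egr1 at 125 ± 4.36, Myc at 88.5 ± 12.0, Ier2 at 86.5 ± 6.01 and Ier5 at 55.2 ± 2.29 CPM per kb. The lower part was Egr2 at 4.38 ± 1.09, Nr4a1 at 4.06 ± 0.867, Nr4a3 at 1.84 ± 0.447, Nr4a2 at 1.63 ± 0.167 and Egr3 at 0.872 ± 0.231 CPM per kb (SD, n = 3). Neighbours whose libraries overlapped were Ier3 with Ier2, Nr4a2 with Egr3 and Egr2 with Nr4a3 in AAV9-hFNDC4 libraries. In AAV9-CTRL libraries they were Ier3 with Egr1, Myc with Ier2, Egr2 with Nr4a1, and Nr4a3 with Nr4a2. Egr3 was thus the lowest of the 10 in AAV9-CTRL libraries, and Myc was the highest of the 10 in AAV9-hFNDC4 libraries.

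The 10 genes have 1 to 8 exons in the longest transcript and 1131 to 5720 bases of exon, and none shares exon bases with another gene in the GENCODE vM21 basic annotation. Early gene mRNAs are known to be unstable through AU-rich elements of the 3′ untranslated region. The element core TATTTAT occurred there in 3 of the 10 genes, with 4 copies in Ier3, 2 in Nr4a3 and 1 in Nr4a2, against 27.5% of 17648 genes. The shorter ATTTA occurred in each gene except Ier2, with 7 copies in Egr3 and 5 in both Ier3 and Nr4a3. Genes with and without TATTTAT were found among the lower ones, and Nr4a2, with 1 copy, was among the higher ones.

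Upstream of these genes, 4 of 14 tested genes of the SRF and ETS branch were higher, 2 lower and 8 did not pass, with a median log2 fold change of 0.16. Over all tested genes 22.1% were higher and 25.0% lower, so the 6 called of 14 are near the 47.1% called overall. Srf itself was lower at 55.4 ± 2.37 CPM in AAV9-hFNDC4 libraries, against 99.4 ± 6.57 CPM in AAV9-CTRL libraries (SD, n = 3 each, log2 fold change -0.84). Its ETS partner Elk1 was higher by 0.59 on the log2 scale, as was the ribosomal S6 kinase Rps6ka3 by 0.62, while the MAPK kinase Map2k2 was lower with -0.64. With the length correction Rps6ka3 was higher by 0.29, and with the GC correction Map2k2 was lower with -0.41. In the CREB branch 4 of 10 genes were higher and 1 was lower, with a median of 0.33 that was 0.09 with the length correction, under which 2 were higher. Prkacb, a catalytic subunit of protein kinase A, was higher by 0.53, and the CREB coactivators Crtc1 and Crtc2 changed by 0.55 (0.36 with the length correction) and -0.46. The single lower call, Crtc2, was lost with the GC correction (-0.27, adjusted p = 0.0546), and 2 genes were higher without AAV9-CTRL replicate 3.

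Among EGR co-regulators, 1 of 4 tested genes was higher and 0 lower by edgeR (0 lower also at an unadjusted p under 0.05, by DESeq2 and by limma-voom). The higher gene was the EGR corepressor Nab2, at 86.2 ± 1.84 CPM in AAV9-hFNDC4 libraries, against 68.5 ± 5.82 CPM in AAV9-CTRL libraries (SD, n = 3 each, log2 fold change 0.33). The value of Nab2 was 0.55 with the GC correction. Leaving out AAV9-hFNDC4 replicate 1 or 3 ended its call, and 3 genes were higher without AAV9-CTRL replicate 1. Nab2 is also a known EGR1 target. Of 12 tested genes reported as EGR1 targets, 5 were lower and 3 higher, with a median of -0.37. Over all tested genes 25.0% were lower and 22.1% higher, shares that also belong beside the co-regulators and the RXR partners. Without AAV9-hFNDC4 replicate 2, 5 targets were higher. The growth factor Pdgfa was lower with -0.68, and the matrix protein Thbs1 had 0 counts in AAV9-hFNDC4 libraries against 142 in AAV9-CTRL libraries, at least 52.6-fold lower (floor of 3 counts over the group). F3, the tissue factor of coagulation, was higher by 0.68. The RXR partners Rxra and Rxrb were higher by 0.38 and 0.30 and Rxrg lower with -1.16, at 1.49 ± 0.475 CPM in AAV9-hFNDC4 libraries against 3.35 ± 0.560 CPM in AAV9-CTRL libraries (SD, n = 3 each). Rxrb was higher by 0.54 with the GC correction. The 2 higher RXR calls fell to 1 without AAV9-hFNDC4 replicate 2 or with the length correction, and to 0 without AAV9-hFNDC4 replicate 1 or 3 or AAV9-CTRL replicate 1 or 3.

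PP2A is the phosphatase that IER5 is known to bring to HSF1 and that IER3 acts on. The list held 6 chosen subunit genes of PP2A, and subunits outside the list were not looked at. Of these 6 genes, 5 were lower, against 25.0% of all tested genes, and 0 higher by edgeR (0 higher also at an unadjusted p under 0.05, by DESeq2 and by limma-voom). Their median log2 fold change was -0.60. The catalytic subunit Ppp2cb stood at 73.5 ± 2.07 CPM in AAV9-hFNDC4 libraries, against 128 ± 1.60 CPM in AAV9-CTRL libraries (SD, n = 3 each), a log2 fold change of -0.79 that was -0.46 with the length correction. The regulatory subunit Ppp2r2a was lower with -0.65. Beside the higher Myc, 12 of 18 tested MYC target genes were lower and 0 higher by edgeR (0 higher also at an unadjusted p under 0.05, by DESeq2 and by limma-voom), with a median of -0.66, against 25.0% of all tested genes lower. Rrp9, a factor of ribosomal RNA processing, stood at 29.5 ± 4.73 CPM in AAV9-hFNDC4 libraries, against 86.3 ± 17.4 CPM in AAV9-CTRL libraries, and Srm, spermidine synthase, at 83.9 ± 10.1 CPM in AAV9-hFNDC4 libraries against 205 ± 32.1 CPM in AAV9-CTRL libraries (SD, n = 3 each). With the length correction 13 MYC targets were lower, with a median of -0.50. Of 9 tested MYC partners and antagonists, 4 were higher and 4 lower, against 22.1% higher and 25.0% lower over all tested genes. Max, the obligate partner of MYC, was lower with -0.67 and Mxd1, an antagonist, with -1.24, while the antagonists Mnt and Mxi1 were higher by 0.90 and 0.89.

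Of 8 proteins that bind AU-rich elements, 5 were lower and 1 higher, against 25.0% lower and 22.1% higher over all tested genes. Zfp36 (tristetraprolin), which promotes decay of such mRNAs, was lower at 11.6 ± 0.850 CPM in AAV9-hFNDC4 libraries, against 26.9 ± 3.40 CPM in AAV9-CTRL libraries (SD, n = 3 each). Zfp36l1 was lower with -0.96 and Tia1 higher by 0.52 on the log2 scale. Of 35 other tested early response genes, 23 were lower, 5 higher and 7 did not pass, against the same 25.0% lower and 22.1% higher. Their median was -0.85. These 35 genes include Zfp36 again, and Sik1, which is also counted in the CREB branch. The lower genes with the smallest p were Fos with -5.68 (SE 0.20) and Ccn1, a matricellular protein, with -4.07 (SE 0.18). The higher genes with the smallest p were Klf10, a TGF-beta induced zinc finger factor, by 0.62 (SE 0.11) and the clock gene Per1 by 0.58 (SE 0.10). These were picked by p, and the largest of the 5 higher changes was 2.45 (SE 0.47).

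**Figure D4:**
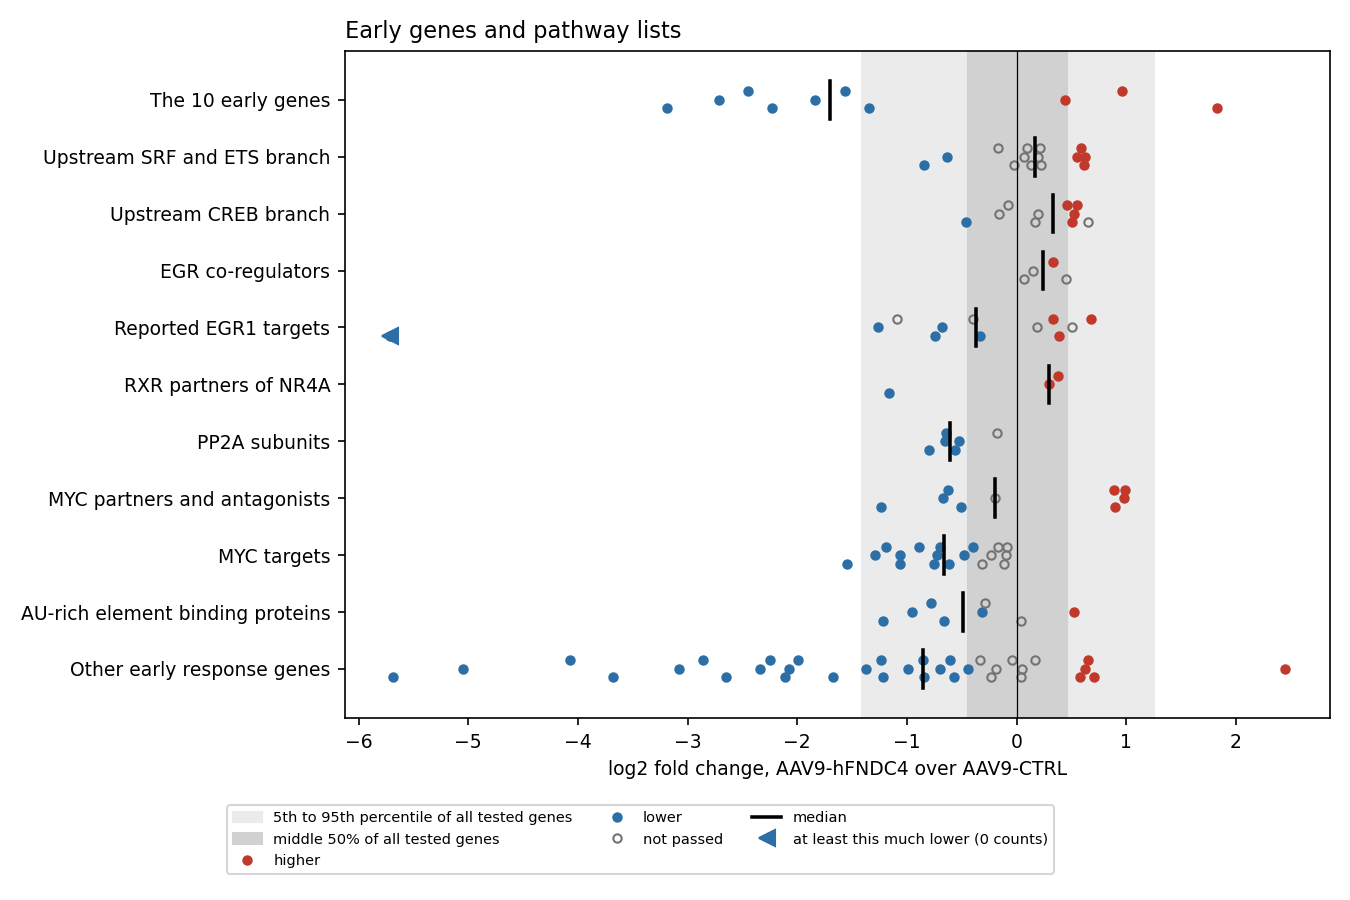
Log2 fold change (AAV9-hFNDC4 over AAV9-CTRL) of the 10 early genes and of 10 pathway lists, with a point per gene, filled where called, black bars for medians and grey bands for the 5th to 95th percentile and the middle 50% of all 14663 tested genes. The triangle marks Thbs1 at its bound. The median lies at -1.70 for the 10 early genes, at -0.85 for other early response genes and at -0.66 for MYC targets.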

How the data were processed

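The authors deposited raw read counts per gene symbol for 6 libraries, with no normalization. The submitters' processing notes name fastp, HISAT2, HTSeq, R 3.2.0 and DESeq2 with GRCm38 (mm10). The sources used here do not state parameters, annotation release or strand setting. The tests below used edgeR 4.0.16 under R 4.3.3. The steps were filterByExpr, TMM, robust dispersions and the quasi-likelihood F test over 14663 genes, with Benjamini-Hochberg adjustment and a threshold of 0.05. The SE is the size of the log2 fold change divided by the square root of F. CPM values use TMM library sizes, except for markers and the Egr4 floor (plain totals). Exon lengths are of GENCODE vM21 basic, coordinates and promoter windows of RefSeq GRCm38.p6. Ratios of paralogs used 0.5 added counts. Floors and intervals cover counting error only.

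Alternatives were RLE, upper-quartile, no filter, 1 CPM in 3 libraries, DESeq2 1.42.0, limma-voom (limma 3.58.1), the replicate number as a block, length and GC corrections (loess, span 0.4, for the 92.5% of tested genes with a length) and leaving out each library. On simulated counts of 14663 genes for AAV9-hFNDC4 against AAV9-CTRL with 200 changed genes, 88% of 2-fold changes and 35% of 1.5-fold changes were called. In the data 47.1% of tested genes were called, and the adjustment depends on that share. The simulated rates therefore do not give the sensitivity of the comparison itself. Named were the 10 genes and, per list, the 2 called genes of smallest p per direction, of which 1 is not reported here. The 10 genes, the 10 lists and the 6 marker lists were chosen with earlier results of these data known.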

Additional observations from a re-analysis of the deposited data

How the results depend on the processing

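Over 15 alternatives, the 10 early genes kept their direction in all 150 values and their call in 147. The 3 losses were all of Myc, without AAV9-hFNDC4 replicate 2, without AAV9-CTRL replicate 2 and with the replicate block. The counts over all genes ranged from 2299 to 3603 higher and from 2974 to 4134 lower, each within 1.5 times the main count. All 9 differences in paralog ratio between the group means kept their direction with 5 added counts and without each library in turn, though a design of 3 against 3 cannot pass the threshold. No sign was seen that the replicate numbers pair the libraries, though deviations from the means of such small groups cannot exclude it. Deviations of same-numbered libraries correlated at -0.202 to -0.0585 and those of others at -0.0638 to 0.131, and no library correlated best with its own number. With the replicate block, 2663 genes were higher and 3080 lower, and Myc had a log2 fold change of 0.43 (adjusted p = 0.0654). The block also ended the higher calls of Nab2, Rxra and Rxrb. Upper-quartile scaling and no low-count filter each gave 2 higher EGR co-regulators in place of 1, and the causes were not tested. Depth limits Egr2 and Nr4a3 most, with 36 and 76 reads in their lowest libraries.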

Other observations

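Some early genes of the lists did not reach the test. Ccn2, a matricellular protein related to Ccn1, had 0 counts in all 3 AAV9-hFNDC4 libraries, against 13, 1 and 16 counts in AAV9-CTRL replicates 1 to 3. Atf3, a stress-induced factor, had 3, 12 and 3 counts in AAV9-hFNDC4 libraries, against 7, 11 and 5 in AAV9-CTRL libraries, so it was near the detection limit in both groups. Pdgfb, a growth factor, had 15 counts over the AAV9-hFNDC4 libraries and 35 over the AAV9-CTRL libraries.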
